A study of Rattus norvegicus with 13 samples.

Results

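The genes described here encode the proteasome, and they were taken as every probe on the array whose annotated gene symbol begins with Psma to Psmg and a number. The rule found 44 probes of 43 genes, of 22523 probes and 13337 named genes on the array. One of them, Psmc3ip, matches the rule by its name alone, since it encodes a partner of a recombination protein and not a proteasome subunit. Rat liver RNA was read on Illumina RatRef-12 arrays, 1 for each sample, with 6 arrays of Oval cells, 5 of Preneoplastic foci and 2 of Control. Oval cells and Preneoplastic foci came from male Fischer rats that had received the carcinogen diethylnitrosamine, a diet with 2-acetylaminofluorene, which blocks division of normal hepatocytes, and a partial hepatectomy (the Resistant-Hepatocyte model), and both were cut out by laser 1 week after the surgery. Oval cells are small cells of the bile ductules that expand in this setting and were recognised by morphology and by staining for cytokeratin 19 and GSTP. The foci are clusters of hepatocytes that carry preneoplastic markers. Controls are labelled as hepatocytes of liver, and the study's texts differ on whether random areas of normal or of treated liver were cut.

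RNA of Oval cells and foci came from pools of tissue cut from 4 to 5 animals. The labels do not tie arrays to animals, so arrays of a group may share animals. The p-values measure only the spread between these arrays and may be too small for a statement on animals. The sample titles carry a number, taken here as that of the slide, though no label names it so. Control and Oval cells share 1 number and Preneoplastic foci carry another. This number and group thus cannot be told apart wherever foci enter a comparison. Over all tested probes, the correlation of log2 values was 0.971 to 0.994 within Oval cells, 0.979 to 0.993 within Preneoplastic foci and 0.99 between the Controls. It was 0.869 to 0.928 between Oval cells and foci, 0.756 to 0.838 between Oval cells and Control and 0.844 to 0.886 between foci and Control. The labels were set against markers of each cell type, summed as intensity per array. The 7 biliary and progenitor markers, Krt19 and Epcam among them, summed to 29150 to 44829 in Oval cells, 5869 to 12451 in foci and 2753 to 3191 in Control. The 5 focus markers, led by Gstp1, summed to 9215 to 19436 in Oval cells, 70881 to 81315 in foci and 1975 to 2603 in Control. Hepatocyte markers (5 genes) were also high on the Oval cell arrays, at 91772 to 110268, against 87174 to 99425 in foci and 120914 to 132661 in Control. Stellate markers (6 genes) summed to 27953 to 37817 in Oval cells, 4548 to 9251 in foci and 5034 to 5678 in Control.

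The proteasome is the barrel that degrades proteins tagged with ubiquitin. Its core is built of rings of alpha subunits, which gate the barrel, and rings of beta subunits, of which Psmb5, Psmb6 and Psmb7 carry the cutting sites. Under interferon gamma, cells replace these with Psmb8, Psmb9 and Psmb10 to form the immunoproteasome, which shapes peptides for display on MHC class I, and make the cap of Psme1 and Psme2. The regulatory particle recognises, unfolds and feeds the tagged protein, with a ring of ATPases (Psmc genes) and non-ATPase subunits (Psmd genes). In mouse, the antioxidant factor Nfe2l2 and its relative Nfe2l1 raise subunit genes through antioxidant response elements. Hepatocytes depend on this machinery for the turnover of damaged proteins.

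All 43 genes matched a RefSeq gene by gene ID, and 39 of them had a promoter in the RefSeq table of assembly GRCr8, a window of 250 bases before and 50 after the start. In these windows both strands were searched for an antioxidant response element (ARE, TGACNNNGC), an interferon-stimulated response element (ISRE, GAAA, any 2 bases and GAAA again), an interferon gamma activated site (GAS, TTCNNNGAA) and a CCAAT box (CCAAT). The ARE letters were in 8 of 39 proteasome promoters (20.5%), against 12.1% of all 33469 promoters, and the ISRE letters in 6 (15.4%), against 3.9%. The GAS letters were in 4 (10.3%), against 8.9%, and CCAAT in 18 (46.2%), against 37.5%. A match is a description of letters, not a shown binding site. The 250 bases before the start are given for the 5 genes that lead the comparisons below: Psmb5 rose most in foci, Psmb10 rose most in Oval cells, Psme2 is part of the interferon-regulated cap, Psma1 parted Oval cells from foci most, and Psmd9 fell in both tissues. Capitals mark ARE, ISRE and GAS matches on either strand, and the letters read 5′ to 3′ along the gene's strand.
Psmb5, chr15:32047380-32047629, minus strand: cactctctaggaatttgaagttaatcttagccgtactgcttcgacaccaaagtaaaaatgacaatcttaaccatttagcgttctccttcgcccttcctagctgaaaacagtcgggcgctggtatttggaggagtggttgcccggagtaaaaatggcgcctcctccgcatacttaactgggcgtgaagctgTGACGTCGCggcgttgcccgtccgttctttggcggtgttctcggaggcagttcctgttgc
Psmb10, chr19:50743293-50743542, minus strand: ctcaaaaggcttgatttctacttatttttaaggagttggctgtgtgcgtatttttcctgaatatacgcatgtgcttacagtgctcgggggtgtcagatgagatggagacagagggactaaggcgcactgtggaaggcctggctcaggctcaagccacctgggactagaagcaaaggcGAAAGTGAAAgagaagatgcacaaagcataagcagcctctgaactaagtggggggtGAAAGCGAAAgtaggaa
Psme2, chr15:33052752-33053001, minus strand: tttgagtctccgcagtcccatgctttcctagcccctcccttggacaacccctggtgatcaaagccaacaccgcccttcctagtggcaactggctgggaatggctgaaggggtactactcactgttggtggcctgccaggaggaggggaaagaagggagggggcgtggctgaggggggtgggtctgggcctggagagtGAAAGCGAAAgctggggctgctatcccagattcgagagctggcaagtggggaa
Psma1, chr1:177887858-177888107, minus strand: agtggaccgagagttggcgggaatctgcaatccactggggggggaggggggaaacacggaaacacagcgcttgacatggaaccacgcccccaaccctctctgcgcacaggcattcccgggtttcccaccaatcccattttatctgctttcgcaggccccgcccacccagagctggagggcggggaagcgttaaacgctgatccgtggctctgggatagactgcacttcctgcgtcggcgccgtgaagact
Psmd9, chr12:39018265-39018514, minus strand: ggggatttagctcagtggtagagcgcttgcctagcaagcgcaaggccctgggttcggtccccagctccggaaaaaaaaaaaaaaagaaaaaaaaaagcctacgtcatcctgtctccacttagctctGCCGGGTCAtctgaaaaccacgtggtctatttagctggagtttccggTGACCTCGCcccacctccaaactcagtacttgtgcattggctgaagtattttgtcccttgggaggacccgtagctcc

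Psmb5 carries the ARE letters TGACGTCGC from base -60 on the gene's strand, and Psmd9 carries them at -77 and, on the other strand, at -124. Psmb10 carries the ISRE letters at -73 and at -17, and Psme2 at -53. Psma1 held none of these 3 motifs in the whole window. ISRE letters were also in the windows of Psmb8, Psmb3, Psmd7 and Psma4, and ARE letters in those of Psmb2, Psmb6, Psmd1, Psmd3, Psme4 and Psma3.

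Of the 43 genes, 37 had a median intensity over 300, the study's signal limit, in at least 1 group, and every one of them passed it in all 3 groups, so no proteasome gene entered the tests through 1 group alone. The other 6 were below it in every group. Their medians lay between 155 and 280 in all groups: Psma3, Psmc6 and Psmd8, which are general subunits, Psma8 and Psmb11, the subunits of testis and thymus, and Psmc3ip. For 16 of the 43 genes RefSeq lists named copies (44 in all), most often processed pseudogenes, and a probe may read these too. Psmb3 has 10 of them and Psma6 has 5. Psmd10, Psmd14, Psme3, Psmf1, Psmg3 and Psmg4 were not analysed here.

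Against Control, proteasome genes moved by small amounts in both tissues, more of them upward. Of the 37 tested, 15 rose and 3 fell in Oval cells at an adjusted p under 0.05 (limma, Benjamini-Hochberg over 6997 probes), which is 40.5% and 8.11%, against 36.4% and 34.4% of all probes. In Preneoplastic foci 20 rose and 5 fell (54.1% and 13.5%), against 32.7% and 32% of all probes. The median log2 difference of the 37 was 0.13 in Oval cells and 0.28 in foci, against 0.01 over all probes in each comparison. Only 1 gene passed the 2-fold limit as well in each comparison, Psmb10 in Oval cells and Psmb5 in foci, where 13.5% and 10.3% of all probes were called higher, and none was called lower, where 12% and 7.8% of all probes were. In Oval cells 13 genes lay above both Control arrays on every array and 6 below (35.1% and 16.2%), against 37.7% and 35.7% of all probes. In foci these were 21 and 6 (56.8% and 16.2%), against 34.5% and 34.1%. Both comparisons share the 2 Control arrays.

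These directions are relative to the typical probe, since quantile normalization gives every array 1 distribution. Centring each array on its ribosomal protein genes moved the median of all probes by -0.895 in Oval cells and by -0.844 in foci (log2), and 0 proteasome genes then rose and 33 fell in Oval cells, and 1 rose and 29 fell in foci. Under that centring only Psmb10 in Oval cells (0.28) and Psmb5 (0.27) and Psmb9 (0.01) in foci stayed above Control. The 37 genes' median lay 0.11 (Oval cells) and 0.27 (foci) above the median of all probes. Centring adds 1 constant to each array and cannot change this distance. With cyclic loess in place of quantile normalization, the distance was 0.07 and 0.13. There, 8 rose and 10 fell in Oval cells, and 13 rose and 10 fell in foci. Every rise against Control below is therefore a rise relative to the typical probe.

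**Figure D1:**
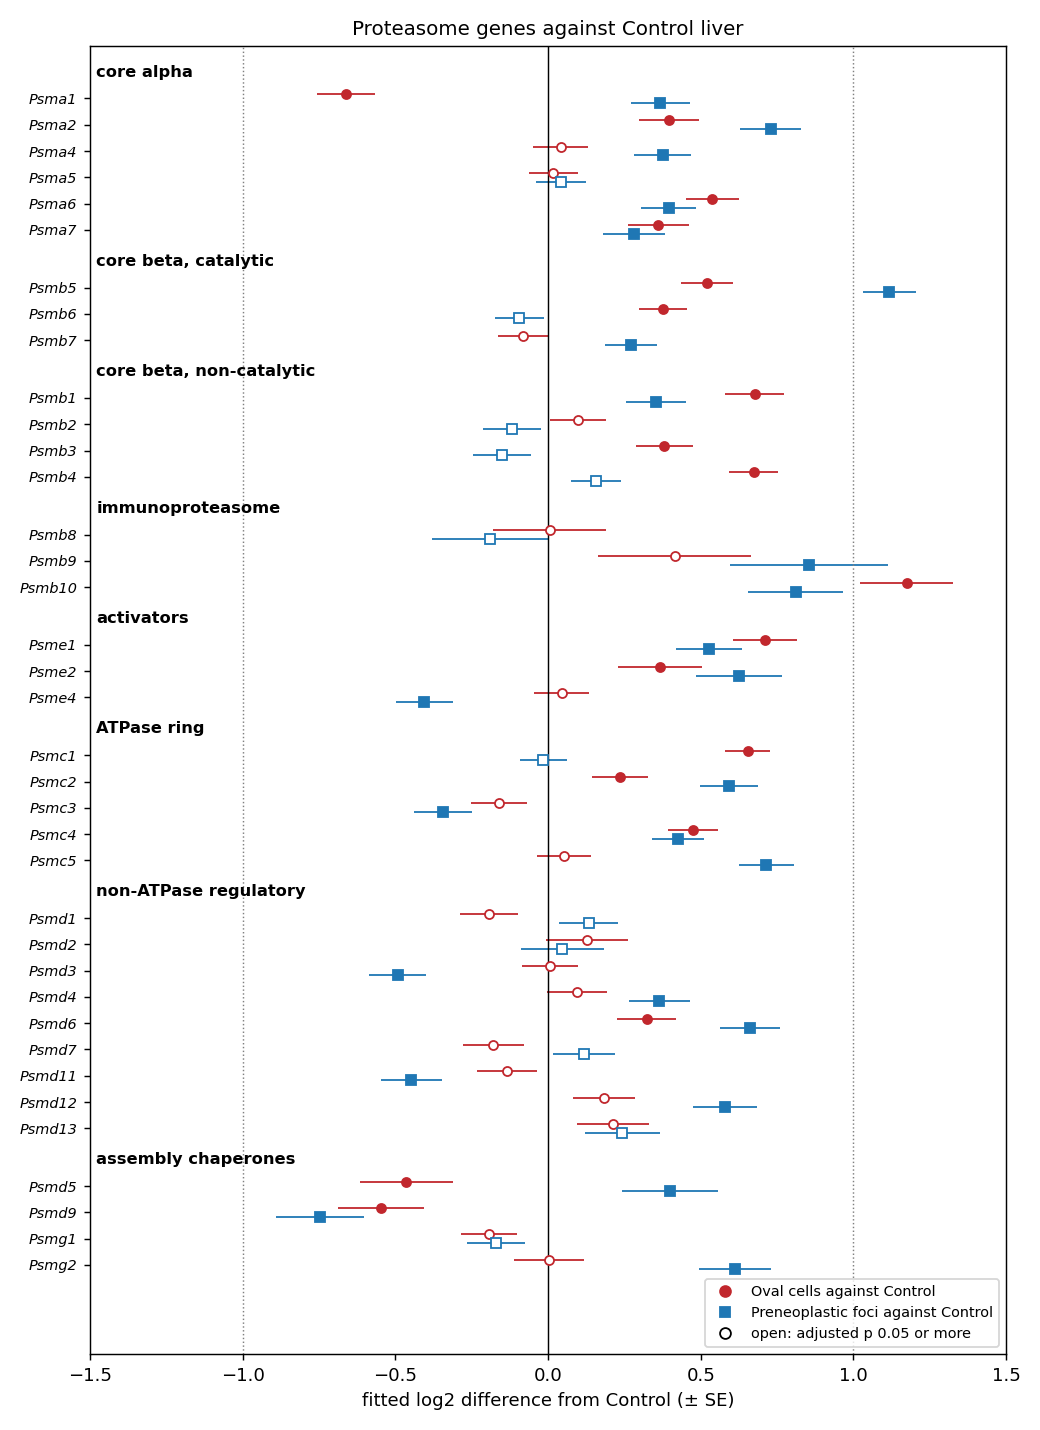
Fitted log2 difference from Control (horizontal axis, ± SE) of the 37 tested proteasome genes, grouped by part of the complex, for Oval cells (red circles, n = 6) and Preneoplastic foci (blue squares, n = 5), each against 2 Control arrays. Filled symbols passed an adjusted p of 0.05 and dotted lines mark 2-fold. Most filled points lie right of 0 (15 of 18 in Oval cells, 20 of 25 in foci), a side that turns for all of these but Psmb10 in Oval cells and Psmb5 and Psmb9 in foci when arrays are centred on ribosomal protein genes.

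In the alpha rings, the gate of the core, 5 of 6 tested genes rose in foci and none fell, with a median of 0.37 on the log2 scale. These are 83.3% and 0%, against 32.7% and 32% of all probes. In Oval cells 3 rose and 1 fell, with a median of 0.20, which is 50% and 16.7%, against 36.4% and 34.4%. Psma2 rose in both tissues. Its intensity was 4237 to 5316 (median 4649) in Oval cells and 5835, 5651, 5552, 6573 and 5851 in foci, against 3701 and 3458 in Control. No array of either tissue reached down to Control, and all foci arrays lay above all Oval cell arrays. The log2 difference was 0.40 ± 0.10 in Oval cells (SE, adjusted p = 0.00208) and 0.73 ± 0.10 in foci (adjusted p = 1.84e-05), and under cyclic loess that in Oval cells was 0.15 (adjusted p = 0.192). Psma6 rose by 0.54 in Oval cells and 0.40 in foci, Psma7 by 0.36 and 0.28, and Psma4 by 0.38 in foci, while Psma5 differed by 0.02 in Oval cells and 0.04 in foci, neither past the test.

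Psma1, also of the alpha ring, moved in opposite directions in the 2 tissues. It read 424 to 454 (median 437) in Oval cells and 874, 757, 751, 909.8 and 821 in foci, against 677 and 627 in Control. Control lay between the tissues, with no overlap on either side. Psma1 fell by 0.66 in Oval cells (SE 0.09, adjusted p = 1.81e-05) and rose by 0.37 in foci (SE 0.10, adjusted p = 0.00394). The rise in foci did not pass without Control replicate 2 (0.31, adjusted p = 0.0565), and under ribosomal centring it turned to -0.48.

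The cutting subunits of the beta rings did not move as 1 group. Psmb5, the chymotrypsin-like site, read 5000.3 to 5601 (median 5288) in Oval cells and 8757, 8084, 7786, 7742 and 7691 in foci, against 3872 and 3582 in Control. The 3 groups were fully apart, in the order foci, Oval cells, Control. Its log2 difference was 1.12 ± 0.09 in foci (2.17-fold, adjusted p = 8.41e-08) and 0.52 ± 0.09 in Oval cells (1.43-fold, adjusted p = 6.61e-05). It was the only tested proteasome gene at least 2-fold above Control in foci, and with cyclic loess its difference there was 0.87, under 2-fold, at an adjusted p of 1.26e-06.

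Psmb6, the caspase-like site, read 3851 to 4267 (median 4111) in Oval cells and 3146, 2914, 2938, 2919.7 and 2888 in foci, against 3246 and 3068 in Control. Oval cells stood above every other array, and foci overlapped Control. It rose by 0.38 ± 0.08 in Oval cells (adjusted p = 0.000535), with 0.18 under cyclic loess (adjusted p = 0.0502), and differed by -0.09 ± 0.08 in foci (adjusted p = 0.307), with -0.28 under cyclic loess (adjusted p = 0.00574). Psmb7, the trypsin-like site, read 2976 to 3317 (median 3012) in Oval cells and 3951, 3851, 4216, 3681 and 3747 in foci, against 3153 and 3313 in Control. Here foci stood above every other array and Oval cells overlapped Control. Psmb7 rose by 0.27 ± 0.09 in foci (adjusted p = 0.0119), a call lost without Control replicate 1 (0.23, adjusted p = 0.102) and under cyclic loess (0.09, adjusted p = 0.397), and differed by -0.08 ± 0.08 in Oval cells (adjusted p = 0.39), with -0.28 under cyclic loess (adjusted p = 0.00931).

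The non-catalytic beta subunits had the highest median of the 8 groups of proteasome genes in Oval cells, where 3 of 4 rose (median 0.53, which ribosomal centring turns below 0), and 1 of 4 rose in foci (median 0.02). That is 75% in Oval cells, against 36.4% of all probes, and 25% in foci, against 32.7%. Psmb4, the last subunit to join the beta ring, read 11875 to 12659.5 (median 12214) in Oval cells and 8084, 7994, 8789, 8979 and 9044 in foci, against 7742 and 7650.2 in Control. Psmb1 read 11501 to 13701 (median 12400.1) in Oval cells and 11117, 9578, 8955, 10697 and 9777 in foci, against 7926 and 7757 in Control. Both genes had Oval cells above all foci and all foci above Control. Psmb4 rose by 0.67 ± 0.08 in Oval cells (adjusted p = 2.93e-06) and differed by 0.16 ± 0.08 in foci (adjusted p = 0.108). Psmb1 rose by 0.68 ± 0.10 in Oval cells (adjusted p = 1.83e-05) and by 0.35 ± 0.10 in foci (adjusted p = 0.00594), with 0.04 in foci under cyclic loess (adjusted p = 0.73).

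Psmb3 read 6225 to 6834 (median 6480.1) in Oval cells and 4347, 4862, 5069.9, 4046 and 4465 in foci, against 4953 and 5114 in Control. Oval cells were apart from the rest, and foci overlapped Control. It rose by 0.38 ± 0.09 in Oval cells (adjusted p = 0.00197), with 0.12 under cyclic loess (adjusted p = 0.256), and differed by -0.15 ± 0.10 in foci (adjusted p = 0.179), with -0.39 under cyclic loess (adjusted p = 0.00299). Psmb2, the remaining subunit of this kind, passed no test against Control, at 0.10 in Oval cells and -0.12 in foci.

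The 3 immunoproteasome subunits did not rise together in either tissue. Psmb10, which takes the place of Psmb7, was the only tested proteasome gene called 2-fold higher in Oval cells. Its main probe read 3976 to 6458 (median 5921) in Oval cells and 4354, 3888, 4159.7, 4867 and 4379 in foci, against 2648 and 2345 in Control. Every array of both tissues lay above Control, and the lowest Oval cell array fell among the foci. The log2 difference was 1.17 ± 0.15 in Oval cells (2.26-fold, adjusted p = 7.22e-06) and 0.81 ± 0.16 in foci (1.75-fold, adjusted p = 0.000382). A second Psmb10 probe, dimmer, read 815 to 1219 (median 1162) in Oval cells and 1276, 874, 1086, 1348 and 1038 in foci, against 798 and 636 in Control. That probe gave 0.66 ± 0.19 in Oval cells (adjusted p = 0.00538) and 0.70 ± 0.19 in foci (adjusted p = 0.0051), so both probes passed the test and only the brighter one passed 2-fold.

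Psmb9, which replaces Psmb6, read 650.4 to 1364 (median 1151) in Oval cells and 1486, 1035, 1409, 1733 and 1607 in foci, against 878 and 771 in Control. All foci were above Control, and 1 Oval cell array was below it. It rose by 0.86 ± 0.26 in foci (adjusted p = 0.00955), a call lost without Control replicate 2 (0.75, adjusted p = 0.0819), and differed by 0.41 ± 0.25 in Oval cells (95% interval -0.13 to 0.95, adjusted p = 0.154). Psmb8, which replaces Psmb5, read 5188 to 10171 (median 8497) in Oval cells and 7328, 6479.5, 7011, 7837 and 6630.3 in foci, against 8586 and 7486 in Control. The groups overlapped on both sides. Its log2 difference was 0.01 ± 0.19 in Oval cells (95% interval -0.39 to 0.40, adjusted p = 0.981) and -0.19 ± 0.19 in foci (-0.60 to 0.22, adjusted p = 0.394).

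**Figure D2:**
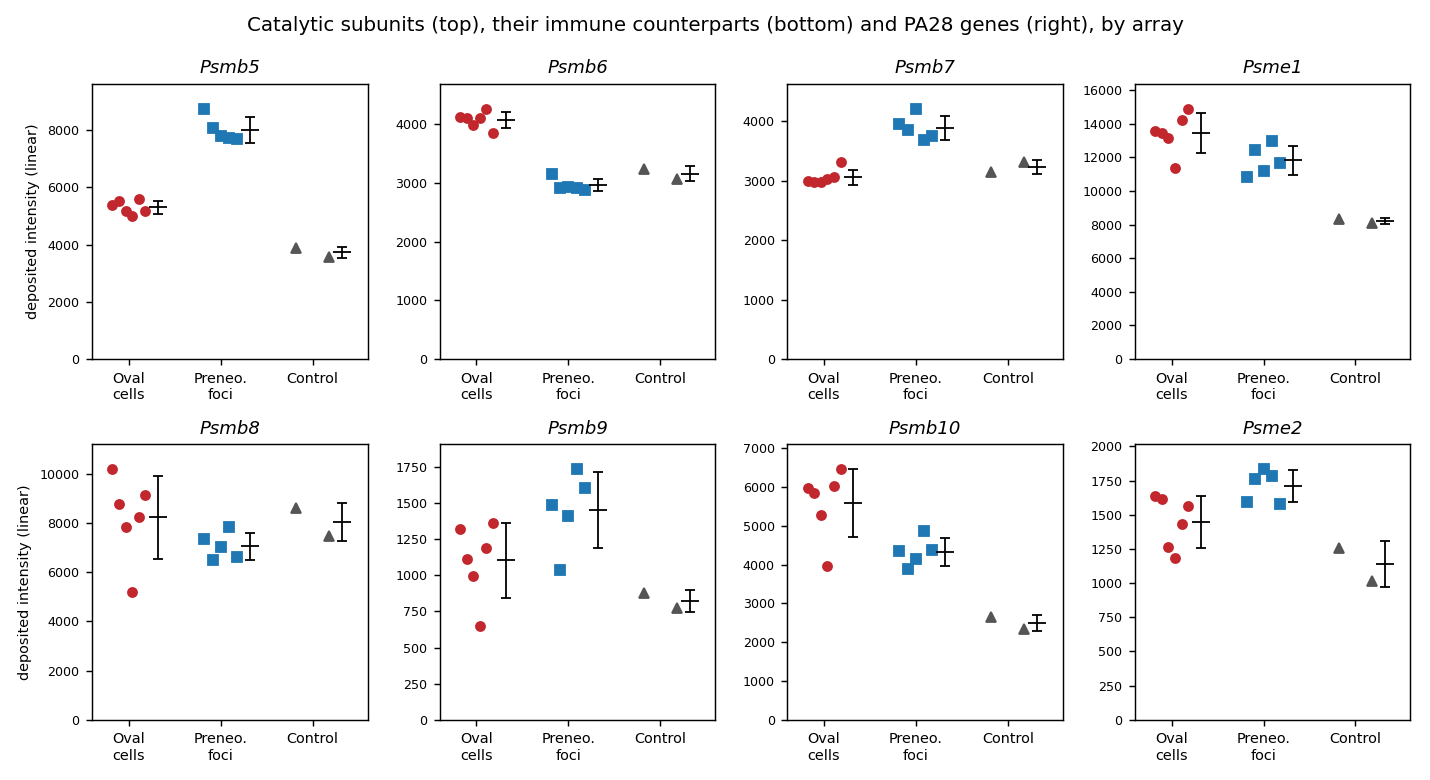
Deposited intensity on a linear axis from 0, one point per array, of the cutting subunits Psmb5, Psmb6 and Psmb7 (top), the subunits that replace them, Psmb8, Psmb9 and Psmb10 (bottom), and the cap genes Psme1 and Psme2 (right), in Oval cells (n = 6), Preneoplastic foci (n = 5) and Control (n = 2), with mean and SD beside the points. Psmb5 is highest in foci (7691 to 8757), Psmb6 in Oval cells (3851 to 4267), and 1 Oval cell array, replicate 4, is the lowest of its group for Psmb5, Psmb8, Psmb9, Psmb10 and both cap genes.

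The immunoproteasome genes were also among the most variable proteasome genes over the Oval cell arrays. The highest array exceeded the lowest by 2.1 times for Psmb9, 1.96 times for Psmb8, 1.62 times for Psmb10 and 1.47 times for the chaperone Psmd5, against a median of 1.19 times over the 37 genes. Oval cells replicate 4 was the lowest of the 6 arrays for all 3, at 650.4 for Psmb9, 5188 for Psmb8 and 3976 for Psmb10. It was the lowest for 12 of the 37 genes in all, Psme1, Psme2, Psmb5, Psmb3, Psma5, Psma7, Psmc5, Psmd3 and Psmd5 being the others, and each other Oval cell array was the lowest for 2 to 9. It was also lowest for Irf1, an interferon-induced activator of these genes (3129, against 4809 to 6552 on the other 5), for Tap1, the peptide transporter encoded beside Psmb9 (326, against 380.5 to 524; named after its values were seen), and for the summed lymphocyte markers (4491, against 4801 to 7370.0), macrophage markers (38783, against 41146 to 53986) and focus markers (9215, against 13485 to 19436), and it was the highest for stellate markers (37817, against 27953 to 36898). Replicate 4 was not the lowest for Ifngr1, the interferon gamma receptor (1736.5, against 1445.8 to 1997.2 on the other 5). Without this array, Psmb9 was 0.57 higher in Oval cells than in Control (adjusted p = 0.0109), Psmb10 1.27 higher (adjusted p = 1.32e-07) and Psmb8 0.13 higher (adjusted p = 0.314). The array was picked as the lowest for these genes, so leaving it out must raise Oval cells, and these p-values lend no support. Leaving out each array in turn gave 0.31 to 0.57 for Psmb9 (adjusted p = 0.0109 to 0.448).

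The summed markers of immune cells were highest in Oval cells, as the brighter Psmb10 probe was, but single macrophage markers went both ways. The second Psmb10 probe differed by only -0.04 between Oval cells and foci (adjusted p = 0.813). The 13 annotated lymphocyte markers summed to 4491 to 7370.0 in Oval cells, 3232 to 3632 in foci and 3039 to 3248 in Control, and 7 of them, Cd3e, Cd3d, Cd8b, Cd4, Lck, Cd79b and Gzmb, stayed under 300 on every array. Of the 5 that were tested, 3 rose in Oval cells (60%, against 36.4% of all probes) and 1 in foci (20%, against 32.7%). The 10 macrophage markers summed to 38783 to 53986 in Oval cells, 20043 to 25740 in foci and 17387 to 21443 in Control, and more than any other gene RT1-Da, an MHC class II gene, made up that sum (22575 to 32129.8 in Oval cells, 9626 to 11844 in foci and 6248 to 7385 in Control). Of these 10 markers, 6 rose in Oval cells, Marco, C1qb, C1qc, Cd74, RT1-Ba and RT1-Da, and 3 fell, Cd14, Cd163 and Adgre1. In foci 4 rose and 4 fell. That is 60% and 30% in Oval cells, against 36.4% and 34.4% of all probes. The shares in foci were 40% and 40%, against 32.7% and 32%. The part of immune cells in the rise of Psmb10 was not tested. More cells of a type and more RNA per cell cannot be told apart in pooled tissue. Of 14 tested genes of class I antigen processing and interferon signalling, 5 rose and 3 fell in Oval cells (35.7% and 21.4%, against 36.4% and 34.4% of all probes), and 2 rose and 5 fell in foci (14.3% and 35.7%, against 32.7% and 32%), so the share that rose in Oval cells and the share that fell in foci lay near those of all probes. Irf1 rose by 1.11 ± 0.20 in Oval cells (adjusted p = 0.000164) and fell by 0.60 in foci (SE 0.21, adjusted p = 0.0181). Ifngr1, the interferon gamma receptor, rose by 1.31 ± 0.12 in Oval cells (adjusted p = 2.09e-07) and differed by -0.04 ± 0.12 in foci (adjusted p = 0.77). Of the other genes of the list, some passed in 1 tissue only, while RT1-A3 and Pdia3 moved alike in both. RT1-A3 rose by 0.706 in Oval cells (adjusted p = 0.000113) and 0.855 in foci (adjusted p = 3.4e-05). Pdia3 fell in Oval cells (-0.456, adjusted p = 0.00129) and in foci (-0.267, adjusted p = 0.0412).

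Because a ratio of 2 genes on 1 array is not moved by scaling, each immunoproteasome subunit was set against the subunit it replaces, and the 9 comparisons were tested with exact two-sided permutation tests over arrays, adjusted over the 9. The ratios differed between Oval cells and foci in opposite directions for different pairs. The log2 ratio of Psmb8 over Psmb5 averaged 0.61 ± 0.30 in Oval cells and -0.19 ± 0.13 in foci (SD), a difference of 0.79 (exact permutation p = 0.00433, adjusted p = 0.0195). In Control it averaged 1.12 ± 0.06, above every array of both tissues. The ratio of Psmb9 over Psmb6 ran the other way, at -1.998 ± 0.438 in Oval cells and -1.086 ± 0.303 in foci, a difference of -0.912 (exact permutation p = 0.00649, adjusted p = 0.0195), with -2.04 ± 0.09 in Control. Oval cells replicate 6 (-1.548) lay just above the lowest foci array (-1.56). The ratio of Psmb10 over Psmb7 averaged 0.87 ± 0.24 in Oval cells and 0.16 ± 0.17 in foci, a difference of 0.72 (exact permutation p = 0.00649, adjusted p = 0.0195), with -0.39 ± 0.18 in Control, and Oval cells replicate 4 (0.40) fell just under the highest foci array (0.41). With the second Psmb10 probe that last difference was 0.31 (adjusted p = 0.117).

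Against Control the smallest possible p was 0.0357 for Oval cells and 0.0476 for foci, and none of the 6 ratios passed after adjustment. The Psmb10 over Psmb7 ratio was 1.26 higher in Oval cells (exact permutation p = 0.0357, adjusted p = 0.0612) and 0.54 higher in foci (exact permutation p = 0.0476, adjusted p = 0.0612), in each case without overlap. In foci the Psmb8 over Psmb5 ratio was lower by 1.31 (log2 difference -1.31, exact permutation p = 0.0476, adjusted p = 0.0612) and the Psmb9 over Psmb6 ratio was 0.95 higher (exact permutation p = 0.0476, adjusted p = 0.0612), also without overlap.

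**Figure D3:**
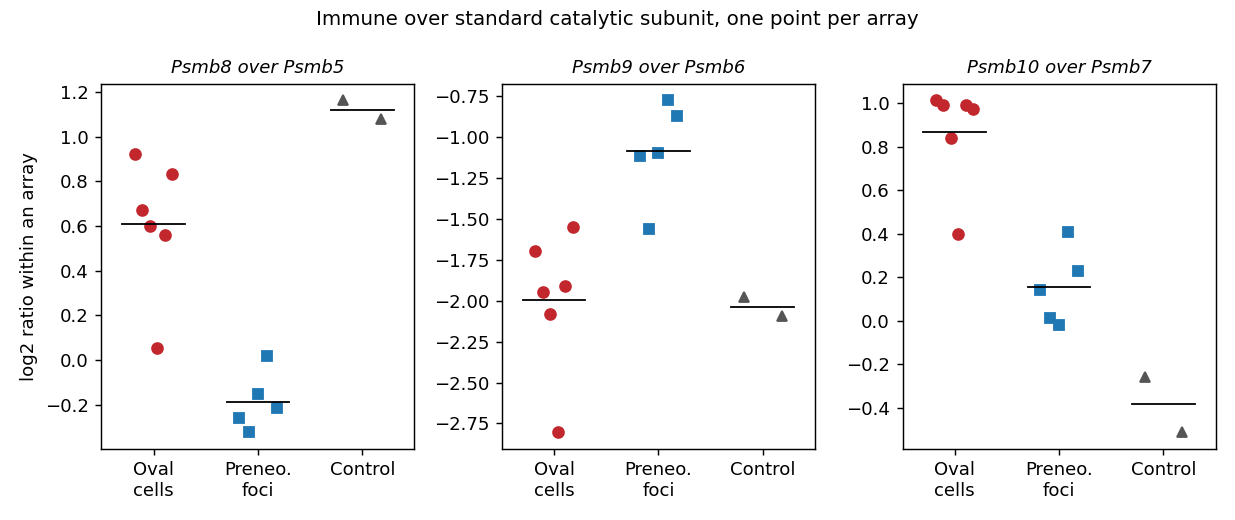
Log2 ratio within an array (vertical axis, own range per panel) of each immunoproteasome subunit over the subunit it replaces, one point per array and a line at the mean, for Oval cells (n = 6), Preneoplastic foci (n = 5) and Control (n = 2). Psmb8 over Psmb5 is lowest in foci (mean -0.19), Psmb9 over Psmb6 is highest in foci (mean -1.09), and Psmb10 over Psmb7 is highest in Oval cells (mean 0.87).

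The genes of the interferon-regulated cap rose in both tissues. Psme1 read 11353 to 14899 (median 13484) in Oval cells and 10856, 12423, 11213, 13000.3 and 11647 in foci, against 8328 and 8099.9 in Control. Every array of both tissues lay above Control. Psme1 rose by 0.71 ± 0.10 in Oval cells (adjusted p = 2.64e-05) and 0.53 ± 0.11 in foci (adjusted p = 0.00063), with 0.21 in foci under cyclic loess (adjusted p = 0.136). Psme2 read 1180.1 to 1634 (median 1498) in Oval cells and 1592, 1762, 1832, 1784 and 1576 in foci, against 1257 and 1018 in Control. Foci were apart from Control and Oval cells overlapped both. Psme2 rose by 0.62 ± 0.14 in foci (adjusted p = 0.00138) and by 0.37 ± 0.14 in Oval cells (adjusted p = 0.0278), the call in Oval cells being lost without Control replicate 2 (0.20, adjusted p = 0.333), without Oval cells replicate 2 (0.33, adjusted p = 0.0505) and under cyclic loess (0.29, adjusted p = 0.0929).

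Psme4, a large nuclear activator that opens the core without ubiquitin, went the other way in foci. It read 3437 to 3840.4 (median 3588) in Oval cells and 2408, 2708, 2826, 2673 and 2692 in foci, against 3216 and 3803 in Control. All foci lay below all other arrays. It fell by 0.41 in foci (SE 0.09, adjusted p = 0.00157), with -0.28 without Control replicate 2 (adjusted p = 0.0509), and differed by 0.04 ± 0.09 in Oval cells (adjusted p = 0.678).

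In the regulatory particle, 4 of 14 tested genes rose and 0 fell in Oval cells (median 0.11). These are 28.6% and 0%, against 36.4% and 34.4% of all probes. In foci 6 rose and 3 fell (median 0.19), which is 42.9% and 21.4%, against 32.7% and 32%. Ribosomal centring turns the sign of these rises. The ATPase ring of the particle was split by tissue. Psmc1 read 11844 to 12908 (median 12100.4) in Oval cells and 7806, 7902, 7820.3, 7521 and 7733 in foci, against 7707 and 7981 in Control. Oval cells stood apart, and 4 of 5 foci arrays lay within the Control range. Psmc1 rose by 0.65 ± 0.08 in Oval cells (adjusted p = 2.09e-06) and differed by -0.02 ± 0.08 in foci (adjusted p = 0.864), with -0.32 under cyclic loess (adjusted p = 0.00142). Psmc5, its neighbour in the ring, did the reverse, at 1175 to 1396 (median 1280.2) in Oval cells and 2045, 1962, 2007, 1869.6 and 2059 in foci, against 1202 and 1277 in Control. It rose by 0.71 ± 0.09 in foci (adjusted p = 7.89e-06) and differed by 0.05 ± 0.09 in Oval cells (adjusted p = 0.604). Of the other ATPases, Psmc2 rose by 0.24 in Oval cells and 0.59 in foci, Psmc4 by 0.47 and 0.42, and Psmc3 fell by 0.34 in foci.

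Among the non-ATPase subunits, 1 of 9 rose in Oval cells and none fell (11.1% and 0%, against 36.4% and 34.4% of all probes). In foci 3 rose and 2 fell (33.3% and 22.2%, against 32.7% and 32%). Psmd6 rose by 0.32 in Oval cells and 0.66 in foci, Psmd12 by 0.58 in foci and Psmd4, a receptor for ubiquitin chains, by 0.36 in foci. Psmd3, a lid subunit, read 5960.0 to 6503 (median 6251) in Oval cells and 4945, 4259, 4061, 4242 and 4670.4 in foci, against 6445 and 5960.0 in Control. Psmd11, the lid subunit that clamps the lid to the core, read 6445 to 6762 (median 6549.9) in Oval cells and 5139.9, 4465, 5949.5, 5679 and 5407 in foci, against 7182 and 7229 in Control. Both genes were lower in all foci than in every other array, and Psmd11 was lower in all Oval cell arrays than in Control. Psmd3 fell by 0.49 in foci (SE 0.09, adjusted p = 0.00034) and Psmd11 by 0.45 (SE 0.10, adjusted p = 0.00135). In Oval cells the differences were 0.01 for Psmd3 (adjusted p = 0.945), with -0.25 under cyclic loess (adjusted p = 0.0266), and -0.13 for Psmd11 (adjusted p = 0.233), with -0.41 under cyclic loess (adjusted p = 0.00217).

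Psmd1, the scaffold of the particle's base, read 1321 to 1553 (median 1492) in Oval cells and 1872, 1818, 1725, 1746 and 1844 in foci, against 1553 and 1749 in Control. Oval cells reached up to the lower Control array, and the higher Control array lay among the foci. Neither difference from Control passed the test, at -0.19 ± 0.09 in Oval cells (adjusted p = 0.0779), with -0.29 under cyclic loess (adjusted p = 0.0175), and 0.13 ± 0.10 in foci (adjusted p = 0.24).

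The assembly chaperones, which hold subunits until they fit and are not part of the finished proteasome, were the only group of proteasome genes in which more genes fell than rose in Oval cells (2 of 4 fell, none rose), and in foci 2 rose and 1 fell. With only 4 genes, 0% rose and 50% fell in Oval cells, against 36.4% and 34.4% of all probes. The shares in foci were 50% and 25%, against 32.7% and 32%. Psmd9 read 1092 to 1417 (median 1341) in Oval cells and 1168, 1021, 1021, 1103 and 1450.1 in foci, against 2030.3 and 1723 in Control. Both tissues lay below Control on every array. Psmd9 fell by 0.55 in Oval cells (SE 0.14, adjusted p = 0.00283) and by 0.75 in foci (SE 0.14, adjusted p = 0.000386), the call in Oval cells being lost without Control replicate 1 (-0.42, adjusted p = 0.0633).

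Psmd5, another chaperone of the ATPase ring, parted the tissues. It read 453 to 666 (median 608) in Oval cells and 1128, 937, 924, 1013 and 975 in foci, against 734 and 809 in Control. Control again lay between. Psmd5 fell by 0.46 in Oval cells (SE 0.15, adjusted p = 0.0136), a call lost without Control replicate 2 (-0.39, adjusted p = 0.121), and rose by 0.40 ± 0.16 in foci (adjusted p = 0.0371), a call lost without either Control array or without foci replicate 1 or 4 (0.32 to 0.48, adjusted p = 0.0555 to 0.223). Psmg2, a chaperone of the alpha ring, read 288 to 358 (median 311) in Oval cells and 492, 413, 408, 435 and 472 in foci, against 307 and 322 in Control. Foci stood apart, and Oval cells and Control lay near the signal limit. It rose by 0.61 ± 0.12 in foci (adjusted p = 0.00037) and differed by 0.00 ± 0.11 in Oval cells (adjusted p = 0.986). Its partner Psmg1 passed no test, at -0.19 in Oval cells and -0.17 in foci.

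Set directly against foci, Oval cells were higher for 12 of 37 genes and lower for 16 (32.4% and 43.2%), against 34.1% and 35.9% of all probes, with a median of -0.02, against -0.03 over all probes. Centring on ribosomal protein genes moved the median of all probes by only -0.051 here, and 9 were then higher and 16 lower. Groups did not overlap for 8 higher and 13 lower genes (21.6% and 35.1%), against 25.8% and 25.7% of all probes. Psma1 alone passed 2-fold, lower in Oval cells, where 6.73% of all probes were called lower and 7.96% higher. Its difference was -1.03 ± 0.07 (2.04-fold, adjusted p = 1.13e-08), and it missed 2-fold without foci replicate 4 and without background correction.

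Genes of 1 ring stood at opposite ends of this comparison, in which 34.1% of all probes were higher and 35.9% lower. All 4 non-catalytic beta genes were higher in Oval cells than in foci, Psmb3 by 0.53 ± 0.07 (adjusted p = 7.08e-06), Psmb4 by 0.52 ± 0.06 (adjusted p = 1.98e-06), Psmb1 by 0.32 and Psmb2 by 0.22. Of 6 alpha genes none was higher and 3 were lower: Psma1, Psma2 by 0.33 and Psma4 by 0.33 (log2 differences -0.33 each). Of the cutting subunits, Psmb6 was higher by 0.47 ± 0.06 (adjusted p = 3.95e-06), while Psmb5 was lower, at -0.60 ± 0.06 (adjusted p = 8.32e-07), and so was Psmb7, at -0.35 ± 0.06 (adjusted p = 0.000125). In the ATPase ring, Psmc1 was the gene highest in Oval cells of all 37 (0.67 ± 0.06, adjusted p = 7.46e-08), and Psmc5 was lower (-0.66 ± 0.06, adjusted p = 4.01e-07). Of 9 non-ATPase genes 2 were higher, Psmd3 (0.50) and Psmd11 (0.31), and 5 were lower, by -0.27 to -0.40. Among the chaperones Psmd5 was lower (-0.86 ± 0.11, adjusted p = 8.02e-06) and so was Psmg2 (-0.61 ± 0.09, adjusted p = 1.41e-05).

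**Figure D4:**
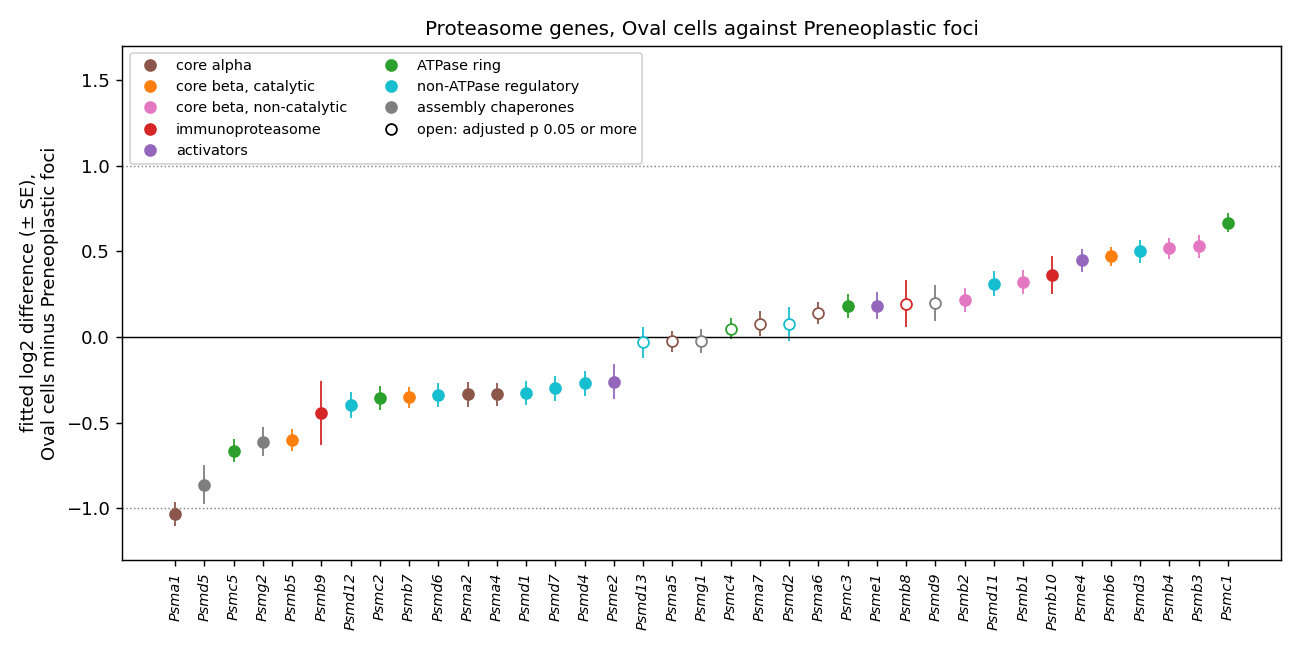
Fitted log2 difference, Oval cells minus Preneoplastic foci (vertical axis, ± SE), of the 37 tested proteasome genes in rank order, coloured by part of the complex. Filled points passed an adjusted p of 0.05 and dotted lines mark 2-fold. Psma1 (-1.03) is the lowest and Psmc1 (0.67) the highest, and the 4 non-catalytic beta genes all lie above 0.

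For the immunoproteasome and cap genes most calls of the direct comparison lay near the 0.05 threshold and were lost in many fits that left out 1 array. Psmb10 was higher in Oval cells by 0.36 ± 0.11 (adjusted p = 0.01), and its second probe differed by -0.04 ± 0.14 (adjusted p = 0.813). Psmb9 was lower (-0.44 ± 0.19, adjusted p = 0.0473), a call lost when any of 10 of the 13 arrays was left out (adjusted p up to 0.116). Psme1 was higher by 0.18 ± 0.08 (adjusted p = 0.0478) and lost its call without any of 10 arrays (adjusted p up to 0.114), and Psme2 was lower (-0.26 ± 0.10, adjusted p = 0.0346) and lost it without any of 6 (adjusted p up to 0.0797). Psmb8 differed by 0.19 ± 0.14 (95% interval -0.10 to 0.49, adjusted p = 0.22). Leaving out each array in turn gave 0.13 to 0.32 for Psmb8 (adjusted p = 0.00452 to 0.418). The highest value came without Oval cells replicate 4, the array picked above as lowest for this gene, and lends no support.

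Genes with ARE letters in the promoter did not share 1 direction. Of the 34 tested genes with a promoter in the table, 7 held them. In foci 1 of these rose, Psmb5, and 3 fell, Psmd9, Psmd3 and Psme4, with a median of -0.12, against 16 that rose and 2 that fell of the 27 without the letters (median 0.36). In Oval cells 2 rose, Psmb5 and Psmb6, and 1 fell, Psmd9, with a median of 0.04, against 11 that rose and 2 that fell of the 27 (median 0.13). Of the 6 tested genes with ISRE letters, 3 rose in Oval cells, Psmb10, Psmb3 and Psme2, and 3 in foci, Psmb10, Psme2 and Psma4, while Psmb8 and Psmd7 passed in neither. Their medians were 0.20 in Oval cells and 0.25 in foci, and 0 fell in either. Of the 28 without the letters, 10 rose and 3 fell in Oval cells (median 0.10), and 14 rose and 5 fell in foci (median 0.26). Of all probes 36.4% rose and 34.4% fell in Oval cells, and 32.7% rose and 32% fell in foci. The counts by motif are descriptions and were not tested.

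Partners of the proteasome also parted the tissues. Adrm1, a ubiquitin receptor of the regulatory particle, read 249 to 288 (median 269.9) in Oval cells and 618, 644, 514, 646 and 632 in foci, against 340 and 397 in Control. All 6 Oval cell arrays lay under the signal limit of 300, so foci were at least 2.04-fold higher and Control at least 1.23-fold higher than Oval cells. The fit gave an adjusted p of 4.41e-09 for Oval cells against foci and 0.000496 for Oval cells against Control. Against Control, Adrm1 rose by 0.86 ± 0.12 in foci (adjusted p = 2.27e-05). Uchl5, the deubiquitinase that Adrm1 holds, read 967 to 1135 (median 1027) in Oval cells and 1321 to 1708 (median 1492) in foci, against 1117 and 1189 in Control, and it rose by 0.41 in foci (adjusted p = 0.00377). Usp14, the other deubiquitinase, rose by 0.58 in Oval cells (adjusted p = 0.000162) and 0.29 in foci (adjusted p = 0.0253). Pomp, which matures the core, fell by 0.23 in Oval cells (adjusted p = 0.0326) and differed by 0.18 in foci (adjusted p = 0.0919). Of the 4 tested genes of this list, 1 rose and 2 fell in Oval cells (25% and 50%, against 36.4% and 34.4% of all probes). In foci 3 rose and none fell (75% and 0%, against 32.7% and 32%).

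Of 6 tested genes that bring substrates to the proteasome, none rose and 4 fell in Oval cells (66.7%, against 34.4% of all probes), and none rose and 3 fell in foci (50%, against 32% of all probes). Vcp, the segregase that pulls tagged proteins free, fell by 0.25 in Oval cells (adjusted p = 0.0245) and 0.82 in foci (adjusted p = 3.1e-06). Rad23b, a shuttle for ubiquitinated proteins, fell by 0.81 in Oval cells (adjusted p = 8.86e-06) and 0.53 in foci (adjusted p = 0.000713), and Ubqln2, another shuttle, by 0.82 (adjusted p = 3.69e-05) and 0.67 (adjusted p = 0.000413). Of 4 tested genes that control proteasome genes or its transport, 2 rose and 2 fell in Oval cells (50% each, against 36.4% and 34.4% of all probes). In foci 1 rose and 1 fell (25% each, against 32.7% and 32%). Nfe2l2 rose by 0.42 in Oval cells (adjusted p = 0.00419) and differed by 0.00 in foci (adjusted p = 0.978). Keap1, which marks Nfe2l2 for degradation, fell by 0.93 in Oval cells (adjusted p = 2.59e-05) and differed by -0.33 in foci (adjusted p = 0.054). Ngly1, which processes Nfe2l1, fell by 0.60 in Oval cells (adjusted p = 0.000486) and 0.70 in foci (adjusted p = 0.000206).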

How the data were processed

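RNA of rat liver was measured on 13 Illumina arrays. Work started from deposited linear intensity values per probe; the authors had processed the scans in BeadStudio (3.0.19.0 in the submitters' processing notes) with quantile normalization. A further table holds 26 per-sample columns whose names match no label and was not used. Intensities were corrected with normexp (offset 50), normalized by quantiles and taken to log2, which sets a value by its rank, hides shifts shared by most genes and shrinks changes of dim probes. The 6997 probes with a median intensity over 300 in at least 1 group entered 1 limma fit (version 3.58.1, R version 4.3.3) over all 13 arrays, with Benjamini-Hochberg adjustment over all of them. Genes rose or fell at an adjusted p under 0.05, and were called 2-fold at a 2-fold difference as well.

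The brightest probe stood for a gene. Names came from the platform annotation, with 13793 probes of 1 symbol, none of several and 8730 unnamed here. Groups came from the labels; replicates were numbered in accession order and pair no arrays. Per-array values were given for the cutting, immunoproteasome and cap genes, and for the 4 largest rises and falls in each comparison. Of the other lists up to 4 genes with the smallest adjusted p were named, and more of the immune cell markers. The members and lists were chosen with earlier results of these data known. The fit was tested on simulated data. Alternatives covered background, offset, filter, fold limit, groups in the fit, array weights, an ordinary t-test, normalization, centring, the second probe and leaving out each array. The study's own array test, a random-variance F-test with a multivariate permutation test, was not rerun. A planned comparison of protein sequences was not run. The number of arrays limits the precision.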

Additional observations from a re-analysis of the deposited data

Results flagged for a closer look

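Of 50 groups of 5 or 6 arrays examined, 3 held an array that stood far from the rest, and chance alone flags about 1 in 20. For Psmb6, Preneoplastic foci replicate 1 had a log2 intensity of 11.59, above 11.46 to 11.49 on the other foci arrays, a gap of 0.799 of the group's range. For Psmb7, Oval cells replicate 6 had 11.66, above 11.5 to 11.55 on the other Oval cell arrays, a gap of 0.719 of the range. For the log2 ratio of Psmb10 over Psmb7, Oval cells replicate 4 had 0.4, below 0.84 to 1.02 on the other 5, a gap of 0.72 of the range. That array was the lowest of its group for 12 of the 37 tested proteasome genes, Psmb8, Psmb9, Psmb10, Psme1, Psme2, Psmb5, Psmb3, Psma5, Psma7, Psmc5, Psmd3 and Psmd5.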

How the results depend on the processing

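No paired analysis was possible because the labels number groups and not replicates, and the replicate numbers used here follow accession order. Without the fold limit the counts were 15 higher and 3 lower in Oval cells against Control, 20 and 5 in foci against Control, and 12 and 16 in Oval cells against foci. With cyclic loess no gene was 2-fold higher than Control in either tissue (0 and 0), 8 rose and 10 fell in Oval cells, and 13 rose and 10 fell in foci. With centring on ribosomal protein genes 0 were 2-fold higher than Control in either tissue, 8 were 2-fold lower in Oval cells and 7 in foci, and past the adjusted p alone 0 rose and 33 fell in Oval cells, and 1 rose and 29 fell in foci. The second probe left 0 genes 2-fold higher in Oval cells and took the Psmb10 over Psmb7 ratio of Oval cells against foci to 0.314 (adjusted p = 0.117). Without background correction 0 genes were 2-fold lower in Oval cells than in foci.

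Centring on ribosomal protein genes turned the sign in Oval cells against Control for Psma2 (-0.499), Psmb1 (-0.219), Psmb3 (-0.515), Psmb4 (-0.221), Psmb5 (-0.376), Psmb6 (-0.519), Psmb8 (-0.89), Psmc1 (-0.242), Psmc5 (-0.843), Psmd3 (-0.888), Psme1 (-0.185), Psme2 (-0.529), Psme4 (-0.851) and Psmg2 (-0.893). In foci against Control it turned Psma1 (-0.476), Psma2 (-0.115), Psmb1 (-0.491), Psmb4 (-0.688), Psmb7 (-0.573), Psmb10 (-0.033), Psmc5 (-0.13), Psmd1 (-0.711), Psmd5 (-0.446), Psme1 (-0.317), Psme2 (-0.219) and Psmg2 (-0.232). Cyclic loess turned Psmd3 in Oval cells against Control (-0.25), and the second probe turned Psmb10 in Oval cells against foci (-0.038). Centring adds 1 constant to each array, and the cause of the other changes was not tested. An ordinary t-test, which is not the study's array test, was also run with Benjamini-Hochberg adjustment. It called 13 higher and 4 lower in Oval cells against Control, 19 and 6 in foci against Control, and 12 and 15 in Oval cells against foci.

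Leaving out 1 array at a time gave 13 to 16 genes higher and 2 to 3 lower in Oval cells against Control, 16 to 21 and 4 to 5 in foci against Control, and 10 to 13 and 14 to 16 in Oval cells against foci. The count 2-fold lower in Oval cells than in foci ranged from 0 to 1, with 0 without Preneoplastic foci replicate 4. The other counts of 2-fold calls did not change.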
